A study of Sus scrofa with 24 samples.

Results

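The genes described here make up the extracellular matrix of muscle and the receptors that hold cells to it. They are the collagens, laminins, integrins, tissue inhibitors of metalloproteinases (TIMPs), ADAMTS proteases, fibulins and fibrillins that the array annotation names, together with FN1, DCN, LUM, BGN, FMOD and SPARC. Members were chosen by symbol alone, and 45 genes of the 6765 with a symbol on the array matched. They are read by 82 of the 23999 probe sets tested, and each gene was represented by its brightest probe set, averaged over the 24 arrays. A further 2 probe sets matched only through an annotation that joins several symbols, and were left out. FMOD and COL1A1 were among the genes with no probe set of that symbol. Every member was matched by gene ID, with the same symbol, to the RefSeq gene table of the assembly Sscrofa11.1 (45 of 45).

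The RNA came from the longissimus dorsi, the long back muscle, of Pietrain (Pi) and German Landrace (DL) pigs, and was hybridised to Affymetrix GeneChip Porcine Genome Arrays. Each breed was sampled before birth, at 35, 63 and 91 dpc (days post conception), and in adulthood. The 8 groups of breed and stage held 3 RNA pools each, named a, b and c, which makes 24 arrays. How many animals made a pool, their sex and the adult age were not found in the labels, and nothing says that the pools came from separate animals, so the p-values measure only the spread between pools. No treatment is named. The titles of the 35 dpc pools of both breeds also carry a letter K that the labels do not explain, and a free-text label calls the animals of all fetal pools peripubertal, against their stated days post conception.

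Skeletal muscle fibres sit in a basement membrane built from laminins and type IV collagen, which is surrounded by a looser interstitial matrix of fibrillar collagens, type VI collagen, fibronectin and small proteoglycans. Fibroblasts between the fibres make much of that matrix, and integrins, dimers of an alpha and a beta chain, link it to the cytoskeleton of the cells. Matrix genes are known to be active while the tissue is laid down and to be quieter in mature muscle.

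Levels are the authors' normalised log2 intensities, on which a step of 1 is a doubling, and levels of different genes cannot be compared because each probe set binds with its own strength. The background of each array was taken as the highest of 23 control probe sets without a target, between 2.31 and 2.69. Of the members, 30 lay above background on every array and 42 on at least 3 arrays, while COL10A1 and TIMP4 were at background on all 24. All tests came from a single limma model over the 23999 probe sets, with Benjamini-Hochberg adjusted p under 0.05 as the threshold, and values after ± in changes are standard errors. Successive stage steps share the arrays of the stage between them, so a high level at 63 or 91 dpc enters both.

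The cell content of the samples also changed with stage, as read from summed intensities of marker genes that are not members. The 13 skeletal muscle markers summed to 67900 to 81300 at 35 dpc, 198000 to 213000 at 63 dpc, 244000 to 283000 at 91 dpc and 364000 to 396000 in adults. The 11 fibroblast and mesenchymal markers summed to 49800 to 58200 at 35 dpc, 51100 to 55500 at 63 dpc, 31200 to 36500 at 91 dpc and 8610 to 10900 in adults. The 12 neural and Schwann cell markers summed to 39400 to 48800 at 35 dpc and to at most 528 at every later stage. Endothelial markers (12 genes) peaked at 91 dpc, at 6180 to 8890, against 2960 to 3560 at 63 dpc. The 10 liver markers summed to 39500 in adult Pi pool b, against 545 and 917 in the other adult Pi pools and 1030 to 2120 in adult DL pools, and to 8400 to 31600 in the DL pools at 63 dpc. The 3' minus 5' difference of the GAPDH control, a sign of RNA integrity and labelling, had group means of 0.56 to 1.16 in the fetal groups, and of -0.59 and -0.42 in adult Pi and adult DL. In such bulk samples, fewer cells of a type and less RNA per cell cannot be told apart, and the part of these shifts in the results below was not tested.

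Between 35 and 63 dpc, both averaged over the breeds, 19 of the 45 matrix and adhesion genes rose and 7 fell. Among all probe sets, 22.3% rose and 22% fell. The median change of the members was 0.29 on the log2 scale, beside 0.00 for all probe sets. From 63 to 91 dpc fewer moved: 8 rose and 5 fell, where 8.88% of all probe sets rose and 9.4% fell, and the median change was -0.01. In adults relative to 91 dpc, 31 fell and 3 rose, beside 26.6% and 30.8% of all probe sets. With GAPDH 3' minus 5' as a covariate, 21 fell, and ITGB3 (-1.39, adjusted p = 0.301), FBLN1 (-0.61, adjusted p = 0.466), COL11A1 (-0.88, adjusted p = 0.696) and ADAMTS6 (-0.34, adjusted p = 0.846) were among those that no longer passed. Of all probe sets, 5270 were then called in either direction, against 13772 without the covariate. All adult pools lay below all fetal pools in this covariate, so the lost calls cannot tell it apart from stage. Without the covariate, the median change in the adult step was -1.34, beside 0.06 for all probe sets. The level of 16 genes was highest at 91 dpc and that of 23 was lowest in adults, and the heat map of the 24 pools shows these blocks by class.

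**Figure D1:**
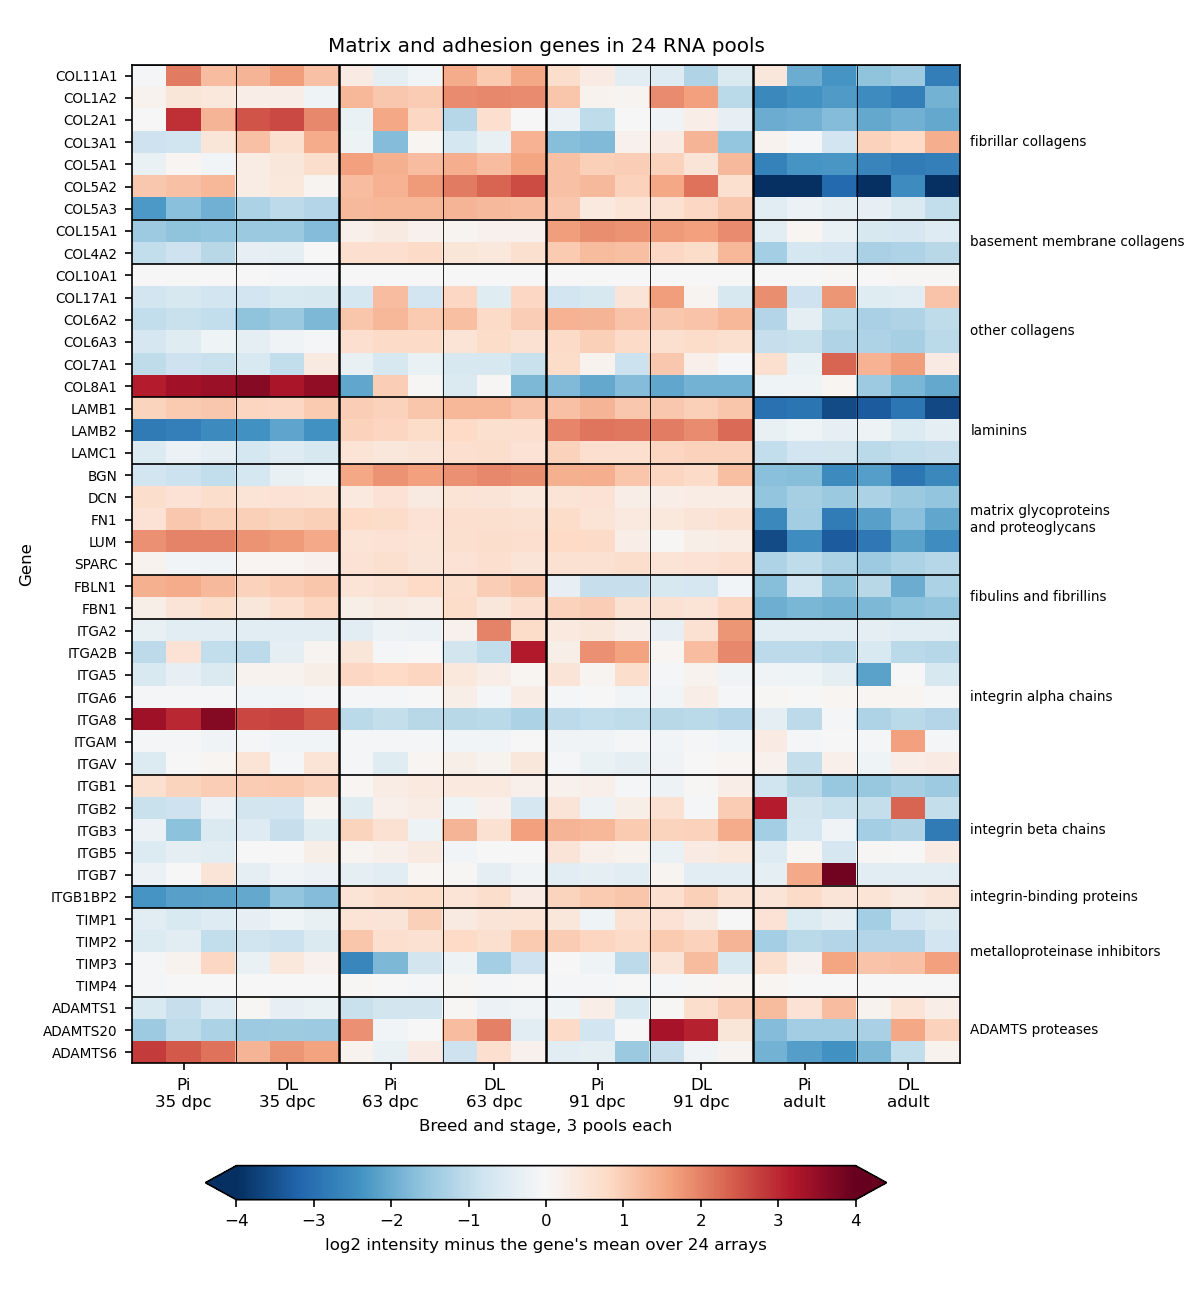
Log2 intensity of each of the 45 genes minus its own mean over the 24 arrays (colour), by class (rows) and by breed and stage (columns, 3 pools each, Pi left of DL at each stage). Most fibrillar collagens, laminins and glycoproteins are below their means in the 6 adult pools, while ITGA8 and COL8A1 are above theirs in the 6 pools at 35 dpc.

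Pools of the compared stages did not overlap for 21 members in the first step (33.4% of all probe sets), 5 in the second (9.66%) and 23 in the third (34.5%). One other scaling bears on directions. When the arrays were scaled to the 27 hybridisation control probe sets, the median of all probe sets in the first step moved to -0.81, and 12 members were then called higher and 23 lower. Changes in that step are therefore changes relative to the other probe sets.

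The fibrillar collagens form the rope-like fibres that give connective tissue its strength. Of 7 such genes, 4 rose and 1 fell between 35 and 63 dpc, beside 22.3% and 22% of all probe sets. In adults relative to 91 dpc 6 fell, beside 26.6% of all probe sets. COL5A1, which encodes the main chain of type V collagen that controls fibril diameter, had lowest, median and highest pool levels of 11.76, 12.21 and 12.73 at 35 dpc and of 13.25, 13.46 and 13.67 at 63 dpc. The levels were 12.53, 12.99 and 13.31 at 91 dpc, and 9.24, 9.35 and 9.70 in adults. Adult pools were thus below all fetal pools, by 3.56 ± 0.12 relative to 91 dpc (11.8-fold lower, adjusted p = 3.95e-14). COL5A1 rose by 1.24 ± 0.12 in the first step (adjusted p = 1.35e-07) and fell by 0.45 ± 0.12 in the second (adjusted p = 0.0134), where the pools overlapped.

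COL5A2, which encodes the partner chain, had the largest fitted fall of all members in adults. Its lowest, median and highest levels were 7.30, 7.91 and 8.84 at 91 dpc, and 2.05, 2.33 and 4.14 in adults. The groups did not overlap, and because 4 of the 6 adult pools lay at background the fitted change of -5.20 ± 0.32 (adjusted p = 1.52e-10) is not exact. In the first step COL5A2 rose by 1.16 ± 0.32 (adjusted p = 0.00659), with levels of 7.90, 8.56 and 9.26 at 63 dpc against 6.77, 7.41 and 7.98 at 35 dpc, and with overlap. Within Pi alone the change was 0.26 ± 0.46 (adjusted p = 0.803) and within DL alone 2.05 ± 0.46 (adjusted p = 0.00178). The difference of -1.80 ± 0.65 between the breeds did not pass (adjusted p = 0.164), but did when only the arrays of the groups compared were fitted (adjusted p = 0.00485). COL5A3, the third type V chain, rose more in that step, by 2.87 ± 0.13 (7.3-fold, adjusted p = 2.8e-12). Its pools lay at 10.45 to 10.57 at 63 dpc, with a median of 10.51, against 6.92 to 8.16 with a median of 7.73 at 35 dpc. It fell by 0.55 ± 0.13 to 91 dpc (adjusted p = 0.00566), where pools ranged over 9.60 to 10.29 with a median of 9.93. The adult fall of 1.24 ± 0.13 (adjusted p = 1.83e-07) left adult pools at 8.21 to 8.96, above those of 35 dpc.

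COL1A2 encodes a chain of type I collagen, the main fibrillar collagen of muscle connective tissue. It rose by 1.29 ± 0.36 in the first step (adjusted p = 0.00689), with levels of 11.19 to 12.10 at 63 dpc against 10.02 to 10.65 at 35 dpc. At 91 dpc the Pi pools stood at 11.30, 10.31 and 10.29 and the DL pools at 12.08, 11.82 and 9.10. DL pool c was thus far below the other DL pools on this probe set, although on a second COL1A2 probe set it had 8.58, against 7.93 and 7.45 in the other DL pools. Adults had 7.44 to 8.29, a fall of 3.04 ± 0.36 relative to 91 dpc (adjusted p = 9.66e-07), which was 3.51 without DL pool c and 3.44 ± 0.46 on the second probe set.

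COL2A1 and COL11A1 encode chains known from cartilage fibrils. COL2A1 fell by 1.62 ± 0.41 in the first step (adjusted p = 0.00312), with overlapping levels of 2.82 to 5.51 at 63 dpc and 4.0 to 6.88 at 35 dpc. All 6 adult pools were at background, which makes the adult level on this probe set at least 2.215-fold lower than at 91 dpc (adjusted p = 0.0016). A second COL2A1 probe set rose by 1.80 ± 0.68 in that step (adjusted p = 0.0324), with 7.15 in Pi pool c, 5.24 in DL pool a and 5.20 in DL pool c, so the adult direction of COL2A1 is not settled. COL11A1 fell by 1.34 ± 0.43 in adults (adjusted p = 0.0118), and Pi pool a, at 5.33, was well above the other adult pools at 2.14 to 3.44. The 5 cartilage markers that are not members summed to 90.2 to 506 at 35 dpc and 329 to 678 at 63 dpc. Their sums were 325 to 650 at 91 dpc and 33.1 to 171 in adults. Of the whole list of 8, which holds COL2A1 and COL11A1, 5 were called lower in adults, these members among them. The adult step also had 1 of the 8 called higher, and among all probe sets 26.6% fell and 30.8% rose. In each fetal group, 1 of the 5 markers that are not members was at background in all 3 pools: SOX6 in DL at 35 dpc, and SOX9 in the other fetal groups. In adults these were ACAN and SOX9 in DL, and ACAN in Pi. SOX9, a transcription factor of cartilage, was also at background in 2 of 3 pools of DL at 35 dpc and of Pi adults. The part of cartilage in these levels was not tested. COL3A1, a collagen of reticular fibres, passed in no step and ranged over 2.61 to 5.87, and its probe set is dim.

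Both basement membrane collagens rose at each fetal step and fell in adults. COL15A1 encodes a collagen that joins the basement membrane to the interstitial matrix. Its lowest, median and highest levels were 9.96, 10.18 and 10.26 at 35 dpc, 11.81, 11.89 and 12.06 at 63 dpc, 13.34, 13.45 and 13.58 at 91 dpc and 11.04, 11.24 and 11.77 in adults. No range of these stages overlapped another. The changes were 1.76 ± 0.08 (adjusted p = 2.07e-12), 1.56 ± 0.08 (adjusted p = 2.09e-10) and -2.16 ± 0.08 (adjusted p = 7.8e-14). COL4A2, a chain of the type IV network, had 11.10 to 12.20 (median 11.62) at 35 dpc, 12.64 to 12.99 (median 12.88) at 63 dpc, 12.95 to 13.55 (median 13.34) at 91 dpc and 10.85 to 11.52 (median 11.06) in adults. It rose by 1.22 ± 0.12 and by 0.46 ± 0.12 in the fetal steps (adjusted p = 1.02e-07 and 0.0104), the second with overlap, and fell by 2.14 ± 0.12 in adults (adjusted p = 2.98e-11). The summed endothelial markers were also highest at 91 dpc, and vessels too have a basement membrane; their part in these levels was not tested.

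The laminins differed from each other in timing. LAMB2 encodes the beta2 chain, which is concentrated at the neuromuscular junction and present in the mature basement membrane, and LAMB1 the beta1 chain. LAMB2 had 7.56, 7.91 and 8.29 at 35 dpc as lowest, median and highest pools, 11.04, 11.16 and 11.32 at 63 dpc, 12.29, 12.47 and 12.67 at 91 dpc and 9.85, 10.10 and 10.24 in adults. No range of these stages overlapped another. LAMB2 rose by 3.28 ± 0.08 in the first step, the largest rise of any member in any step (9.74-fold, adjusted p = 5.22e-16), and by 1.30 ± 0.08 in the second (adjusted p = 4.02e-09), and fell by 2.38 ± 0.08 in adults (adjusted p = 5.71e-14).

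LAMB1 passed in neither fetal step, with medians of 12.15, 12.33 and 12.30 at 35, 63 and 91 dpc and changes of 0.19 ± 0.12 and -0.01 ± 0.12. In adults it stood at 7.58, 8.04 and 8.31, against 12.14, 12.30 and 12.55 at 91 dpc. Adult pools were far below all others, by 4.34 ± 0.12 (20.3-fold lower, adjusted p = 1.28e-15), and a second LAMB1 probe set fell by 3.42 ± 0.57 (adjusted p = 4.91e-05). LAMC1, the gamma1 chain found in most laminins, rose by 1.08 ± 0.07 and 0.25 ± 0.07 in the fetal steps (adjusted p = 1.89e-10 and 0.0122). Its adult fall of 1.74 ± 0.07 (adjusted p = 1.41e-13) depends on the probe set, since the other 3 LAMC1 probe sets changed by -0.24 ± 0.17, 0.23 ± 0.17 and 0.55 ± 0.27 and did not pass.

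Among the 6 other collagens, COL6A2 and COL6A3 encode chains of type VI collagen, the microfibril network around each fibre whose loss causes muscular dystrophy in humans. COL6A2 had 8.09 to 9.0 (median 8.65) at 35 dpc, 10.64 to 11.22 (median 10.96) at 63 dpc, 10.97 to 11.26 (median 11.12) at 91 dpc and 8.58 to 9.49 (median 8.76) in adults. It rose by 2.37 ± 0.12 in the first step (adjusted p = 1.21e-11) and fell by 2.26 ± 0.12 in adults (adjusted p = 1.49e-11), so that adult and 35 dpc pools overlapped. COL6A3 rose by 1.01 ± 0.09 (adjusted p = 1.95e-08) and fell by 1.86 ± 0.09 in adults (adjusted p = 2.44e-12), with adult pools at 11.48 to 11.90, below the 12.12 to 12.72 of 35 dpc.

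COL8A1, a short-chain collagen of vessel walls and other sites, ran the other way. Its pools lay at 7.25 to 7.74 (median 7.51) at 35 dpc, 2.05 to 5.11 (median 3.83) at 63 dpc, 2.02 to 2.39 (median 2.22) at 91 dpc and 2.07 to 4.20 (median 3.30) in adults. On the probe set used, the 35 dpc pools stood apart from all later ones. COL8A1 fell by 3.96 ± 0.37 in the first step (adjusted p = 6.45e-08), a change that is not exact because 2 of the 6 pools at 63 dpc were at background. It fell again by 1.34 ± 0.37 (adjusted p = 0.0152), with 5 of 6 pools at 91 dpc at background. The adult rise of 0.97 ± 0.37 (adjusted p = 0.033) was 1.75 within Pi alone (adjusted p = 0.00991) and 0.18 within DL alone (adjusted p = 0.825). On a second COL8A1 probe set the pools overlapped in the first step, at 2.84 to 5.33 at 35 dpc and 2.29 to 4.86 at 63 dpc. It read 2.29 to 3.89 at 91 dpc and 2.19 to 2.54 in adults, so the adult rise was not seen on it. The remaining COL8A1 probe sets were at background throughout, at 1.97 to 2.15. COL7A1, COL10A1 and COL17A1, known from skin anchoring and growth cartilage, passed in no step.

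**Figure D2:**
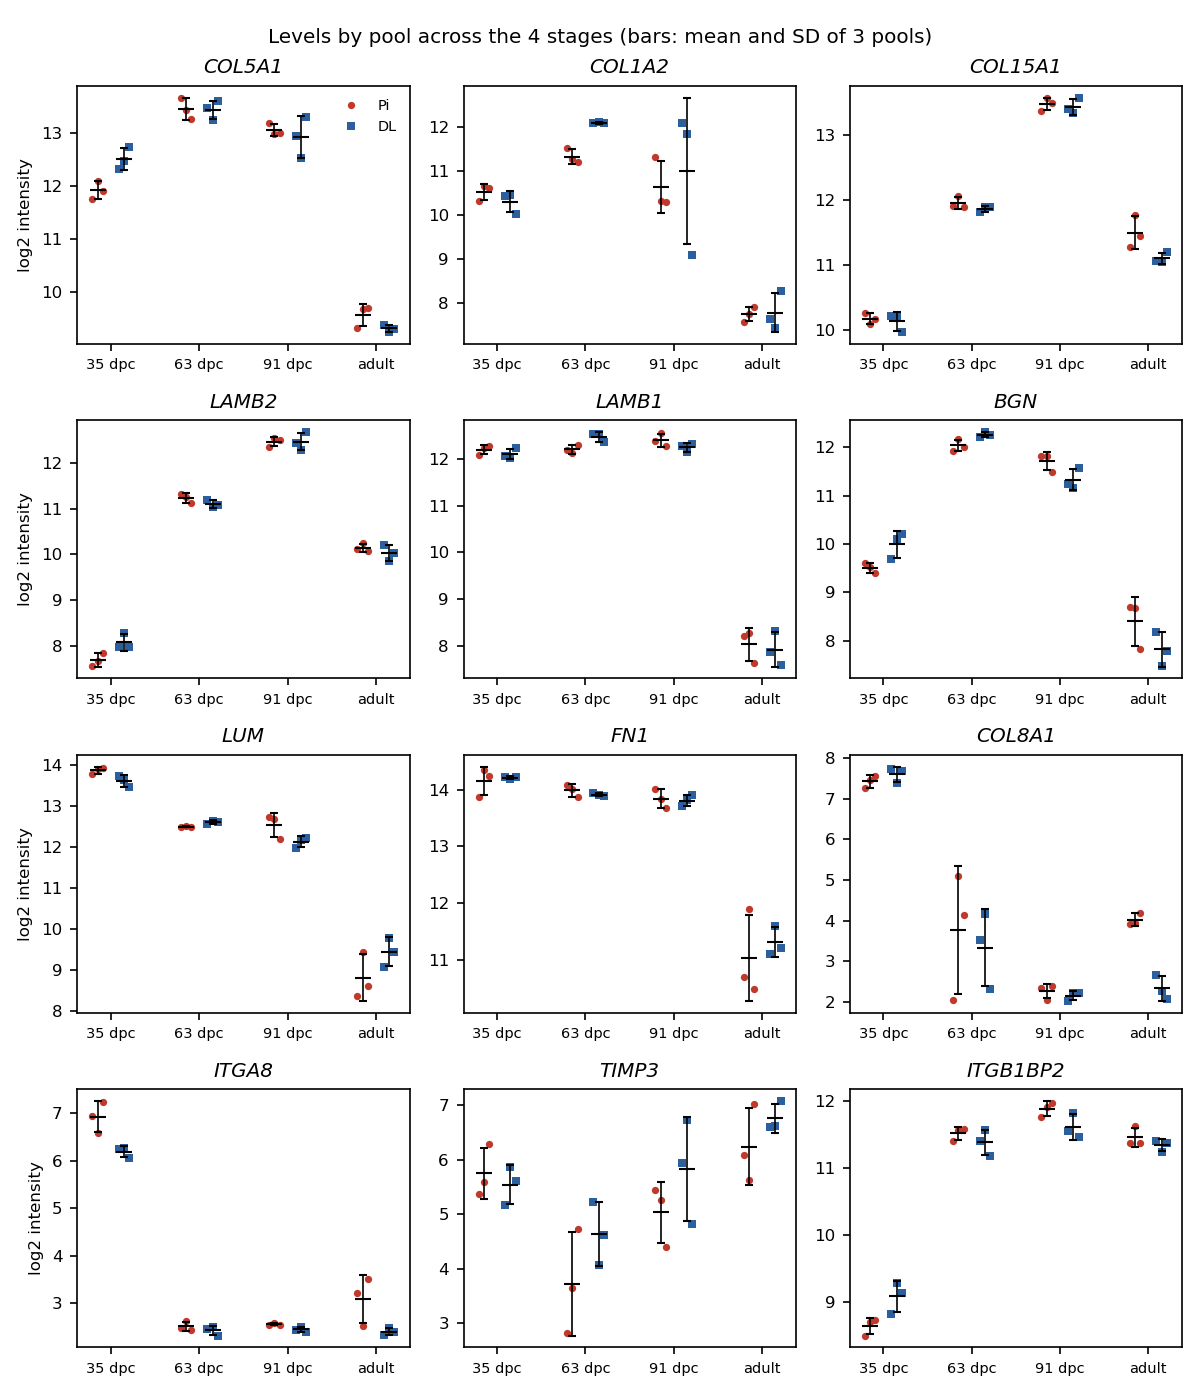
Log2 intensity (vertical axes, 1 panel per gene) of 12 members in each pool at the 4 stages (horizontal axes), with Pi circles left of DL squares and black bars for the mean and SD of 3 pools. LAMB2 and COL15A1 climb to 91 dpc, LAMB1 is lower by 4.34 in adults than at 91 dpc, and COL8A1 and ITGA8 are high at 35 dpc alone.

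The 5 matrix glycoproteins and proteoglycans all fell in adults relative to 91 dpc, beside 26.6% of all probe sets, with a median change of -2.66. BGN encodes biglycan, a small leucine-rich proteoglycan that binds collagen and growth factors. It had 9.40, 9.64 and 10.21 at 35 dpc as lowest, median and highest pools, 11.93, 12.20 and 12.31 at 63 dpc, 11.16, 11.53 and 11.82 at 91 dpc, and 7.48, 8.0 and 8.70 in adults. No range overlapped another. BGN rose by 2.40 ± 0.15 (adjusted p = 2.93e-10), then fell by 0.63 ± 0.15 (adjusted p = 0.00566) and fell by 3.41 ± 0.15 in adults (10.6-fold lower, adjusted p = 1.34e-12).

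LUM encodes lumican, a related proteoglycan that regulates fibril assembly, and fell where BGN rose. Its pools lay at 13.46 to 13.94 (median 13.76) at 35 dpc, 12.49 to 12.65 (median 12.54) at 63 dpc, 11.98 to 12.73 (median 12.22) at 91 dpc and 8.36 to 9.79 (median 9.26) in adults. It fell by 1.19 ± 0.15 in the first step (adjusted p = 3.87e-06) and by 3.21 ± 0.15 in adults (adjusted p = 3.98e-12). DCN, decorin, passed in neither fetal step (changes of -0.14 ± 0.07 and -0.09 ± 0.07) and fell by 1.82 ± 0.07 in adults (adjusted p = 1e-13), with 12.26 to 12.56 in adults against 14.09 to 14.39 at 91 dpc. SPARC, a collagen-binding protein of growing and remodelling tissue, rose by 0.55 ± 0.07 in the first step (adjusted p = 1.57e-06), but fell by 0.26 under the hybridisation control scaling, and fell by 1.85 ± 0.07 in adults (adjusted p = 6.39e-14).

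FN1 encodes fibronectin, an adhesive glycoprotein that is made in tissues and, as a plasma form, by the liver. It passed in neither fetal step and fell by 2.66 ± 0.17 in adults (6.32-fold lower, adjusted p = 3.07e-10), with 10.48, 11.15 and 11.89 as lowest, median and highest adult pools against 13.67, 13.82 and 14.01 at 91 dpc. The highest adult value was that of Pi pool b, the pool with the high liver markers, and without it the fall was 2.88. The next highest, 11.60, was that of DL pool b, where the liver markers summed to 1030. The part of the liver markers in the FN1 levels was not tested. A dimmer FN1 probe set read 1.91 to 2.39 in adults, at or near background, against 7.60 to 8.84 at 91 dpc. Another FN1 probe set, near background throughout at 2.23 to 3.30 in these stages, rose by 0.45 ± 0.13 (adjusted p = 0.00527).

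FBLN1 and FBN1 build elastic fibres and microfibrils. FBLN1, fibulin 1, had 9.74 to 10.36 (median 9.95) at 63 dpc, 8.29 to 9.11 (median 8.57) at 91 dpc and 7.22 to 8.42 (median 7.77) in adults. It was the member with the largest fall from 63 to 91 dpc, at 1.38 ± 0.18 (adjusted p = 1.72e-05, no overlap), and fell by 0.82 ± 0.18 in adults (adjusted p = 0.000594, with overlap). FBN1, fibrillin 1, stood at 12.39 to 13.02 (median 12.77) at 35 dpc, 12.41 to 12.89 (median 12.58) at 63 dpc, 12.72 to 13.16 (median 12.88) at 91 dpc and 10.20 to 10.60 (median 10.34) in adults. Only the adult pools were apart, by a fall of 2.54 ± 0.09 (adjusted p = 1e-13), after a change of 0.29 ± 0.09 to 91 dpc (adjusted p = 0.0349). In that earlier step a second FBN1 probe set changed by -0.24 ± 0.13 (adjusted p = 0.273), the mean of both probe sets by 0.03 (adjusted p = 0.961) and DL alone by 0.05 (adjusted p = 0.987), so that the direction to 91 dpc is not settled.

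Integrins are read here as separate chains. Of 7 alpha chains, 2 rose and 1 fell in the first step, near the 22.3% and 22% of all probe sets. None passed in the second by limma (0 also at an unadjusted p under 0.05), where 8.88% of all probe sets rose and 9.4% fell. In adults 3 fell, beside 26.6% of all probe sets. ITGA8 encodes the alpha8 chain, a receptor for nephronectin and fibronectin known from kidney development and smooth muscle. Its Pi pools had 6.95, 6.59 and 7.24 at 35 dpc and its DL pools 6.24, 6.27 and 6.06. At later stages the 18 pools lay between 2.31 and 3.5, at or just above background. ITGA8 fell by 4.09 ± 0.13 from 35 to 63 dpc, the largest fitted fall of a member in that step (adjusted p = 1.11e-14), which is not exact because the 63 dpc pools lay at or near background, and both dimmer ITGA8 probe sets fell too, by 2.19 ± 0.20 and 2.13 ± 0.46. The neural markers, summed, were high at the same stage only, and in that step 10 of 12 of them fell and 1 rose. Their part in the levels of ITGA8 and COL8A1 was not tested.

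ITGA2B, the platelet alphaIIb chain, had 3.14 to 5.0 (median 4.50) at 91 dpc and was at background in all 6 adult pools, at least 3.103-fold lower (adjusted p = 0.00325). ITGA2, a collagen receptor chain, rose by 0.77 ± 0.28 in the first step (adjusted p = 0.033), but was -0.04 under the hybridisation control scaling. That change is not exact, since 5 of 6 pools at 35 dpc were at background, and it was 0.10 ± 0.40 within Pi alone (adjusted p = 0.951) and 1.44 ± 0.40 within DL alone (adjusted p = 0.00888). ITGA2 was at background in all adult pools, at least 1.573-fold lower than at 91 dpc (adjusted p = 0.00711). Its highest pools at 63 and 91 dpc reached 4.70 and 4.49, with medians of 2.70 and 3.15. ITGA5, the fibronectin receptor chain, rose by 0.71 ± 0.23 in the first step (adjusted p = 0.019), but was -0.10 under the hybridisation control scaling. The change was 1.34 ± 0.33 within Pi alone (adjusted p = 0.00349) and 0.09 ± 0.33 within DL alone (adjusted p = 0.947), and the difference of 1.25 ± 0.47 did not pass (adjusted p = 0.189), but did with only the arrays of the groups compared (adjusted p = 0.00351). Its adult fall of 0.80 ± 0.23 (adjusted p = 0.00702) was met by a rise of 2.36 ± 0.44 on a second probe set (adjusted p = 0.000136), so no direction can be given. ITGAV, shared by several receptors of fibronectin and vitronectin, passed in no step, with 7.25 to 8.75 over all pools, and neither did ITGA6 or ITGAM, both at or near background.

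Of the 5 beta chains, ITGB3 and ITGB1 changed most. ITGB3 encodes beta3, the partner of alphaV and alphaIIb. Its pools lay at 4.89 to 6.28 (median 5.96) at 35 dpc, 6.32 to 8.16 (median 7.27) at 63 dpc, 7.42 to 7.99 (median 7.70) at 91 dpc and 3.68 to 6.38 (median 5.25) in adults. It rose by 1.55 ± 0.31 in the first step (adjusted p = 0.000454) and fell by 2.43 ± 0.31 in adults (adjusted p = 2.35e-06), without overlap in either. ITGB1, the beta1 chain shared by most matrix receptors of muscle, stood at 12.87 to 13.26 (median 13.17) at 35 dpc, 12.32 to 12.63 (median 12.57) at 63 dpc, 12.04 to 12.49 (median 12.34) at 91 dpc and 10.70 to 11.43 (median 10.84) in adults. It fell by 0.61 ± 0.11 in the first step (adjusted p = 0.000138) and by 1.36 ± 0.11 in adults (adjusted p = 4.74e-09).

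ITGB1BP2, melusin, is a muscle protein that binds the tail of beta1. It had 8.49, 8.77 and 9.28 at 35 dpc as lowest, median and highest pools, 11.18, 11.48 and 11.58 at 63 dpc, 11.46, 11.78 and 11.97 at 91 dpc and 11.23, 11.37 and 11.62 in adults. Unlike ITGB1 it rose by 2.59 ± 0.09 in the first step (6.02-fold, adjusted p = 6.59e-14), by 0.30 ± 0.09 in the second (adjusted p = 0.03), and in adults fell by only 0.35 ± 0.09 (adjusted p = 0.00335). The summed skeletal muscle markers rose in the first step as well. They also rose in adults, to 364000 to 396000 from 244000 to 283000 at 91 dpc, where ITGB1BP2 fell. Their part in the levels of ITGB1BP2 was not tested. ITGB2 and ITGB7, chains of white blood cells, passed in no step, but single adult pools stood out: ITGB2 had 6.27 in Pi pool a and 5.46 in DL pool b, against 2.18 to 2.39 in the other 4, and ITGB7 had 6.31 and 3.97 in Pi pools c and b, against 2.04 to 2.10. ITGAM, the alpha chain that pairs with ITGB2, was highest in DL pool b too, at 3.93. The 14 immune markers summed to 2500 in Pi pool a and 1830 in DL pool b, the highest and the lowest of the 6 adult pools; their part was not tested.

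The TIMPs inhibit matrix metalloproteinases, and ADAMTS proteases cleave proteoglycans and process collagens. TIMP2 had 10.46, 10.76 and 11.01 at 35 dpc as lowest, median and highest pools, 12.04, 12.17 and 12.55 at 63 dpc, 12.19, 12.41 and 12.80 at 91 dpc and 10.07, 10.27 and 10.67 in adults. It rose by 1.51 ± 0.12 in the first step (adjusted p = 1.16e-08), as did a second TIMP2 probe set, by 1.42 ± 0.09. In adults the probe set used fell by 2.12 ± 0.12 (adjusted p = 6.63e-11) while the second rose by 0.38 ± 0.09 (adjusted p = 0.00181), so the adult direction of TIMP2 is not settled. TIMP3, which is bound to the matrix, was the only member to fall in the first step (by 1.47 ± 0.36, adjusted p = 0.00268) and rise in both later ones, by 1.25 ± 0.36 and 1.07 ± 0.36 (adjusted p = 0.0212 and 0.0179). Its pools ranged over 5.16 to 6.28 at 35 dpc, 2.82 to 5.23 at 63 dpc, 4.40 to 6.72 at 91 dpc and 5.62 to 7.07 in adults, with overlap at each step and medians of 5.60, 4.34, 5.35 and 6.60. With GAPDH 3' minus 5' as a covariate the adult change of TIMP3 was -0.88 (adjusted p = 0.585). TIMP1 rose by 0.97 ± 0.19 and fell by 0.82 ± 0.19 in adults (adjusted p = 0.000301 and 0.00111), where Pi pool a stood at 11.32 and the other 5 pools at 9.37 to 10.36.

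ADAMTS20 had 2.40 to 2.85 (median 2.43) at 35 dpc and 3.43 to 5.88 (median 4.45) at 63 dpc, a rise of 2.09 ± 0.56 without overlap (adjusted p = 0.00499). It fell by 1.69 ± 0.56 in adults (adjusted p = 0.0157), at 2.13 to 5.41 (median 2.52) against 3.08 to 7.17 (median 4.48) at 91 dpc, with 3 of 6 adult pools at background. ADAMTS6 fell by 1.99 ± 0.31 in the first step (adjusted p = 3.3e-05), to 4.69 to 6.19 (median 5.67) at 63 dpc, against 6.86 to 8.30 (median 7.48) at 35 dpc, and by 0.98 ± 0.31 in adults (adjusted p = 0.0117). ADAMTS1 rose by 0.65 ± 0.17 from 63 to 91 dpc (adjusted p = 0.0112), and its adult change differed between the breeds as given further on.

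**Figure D3:**
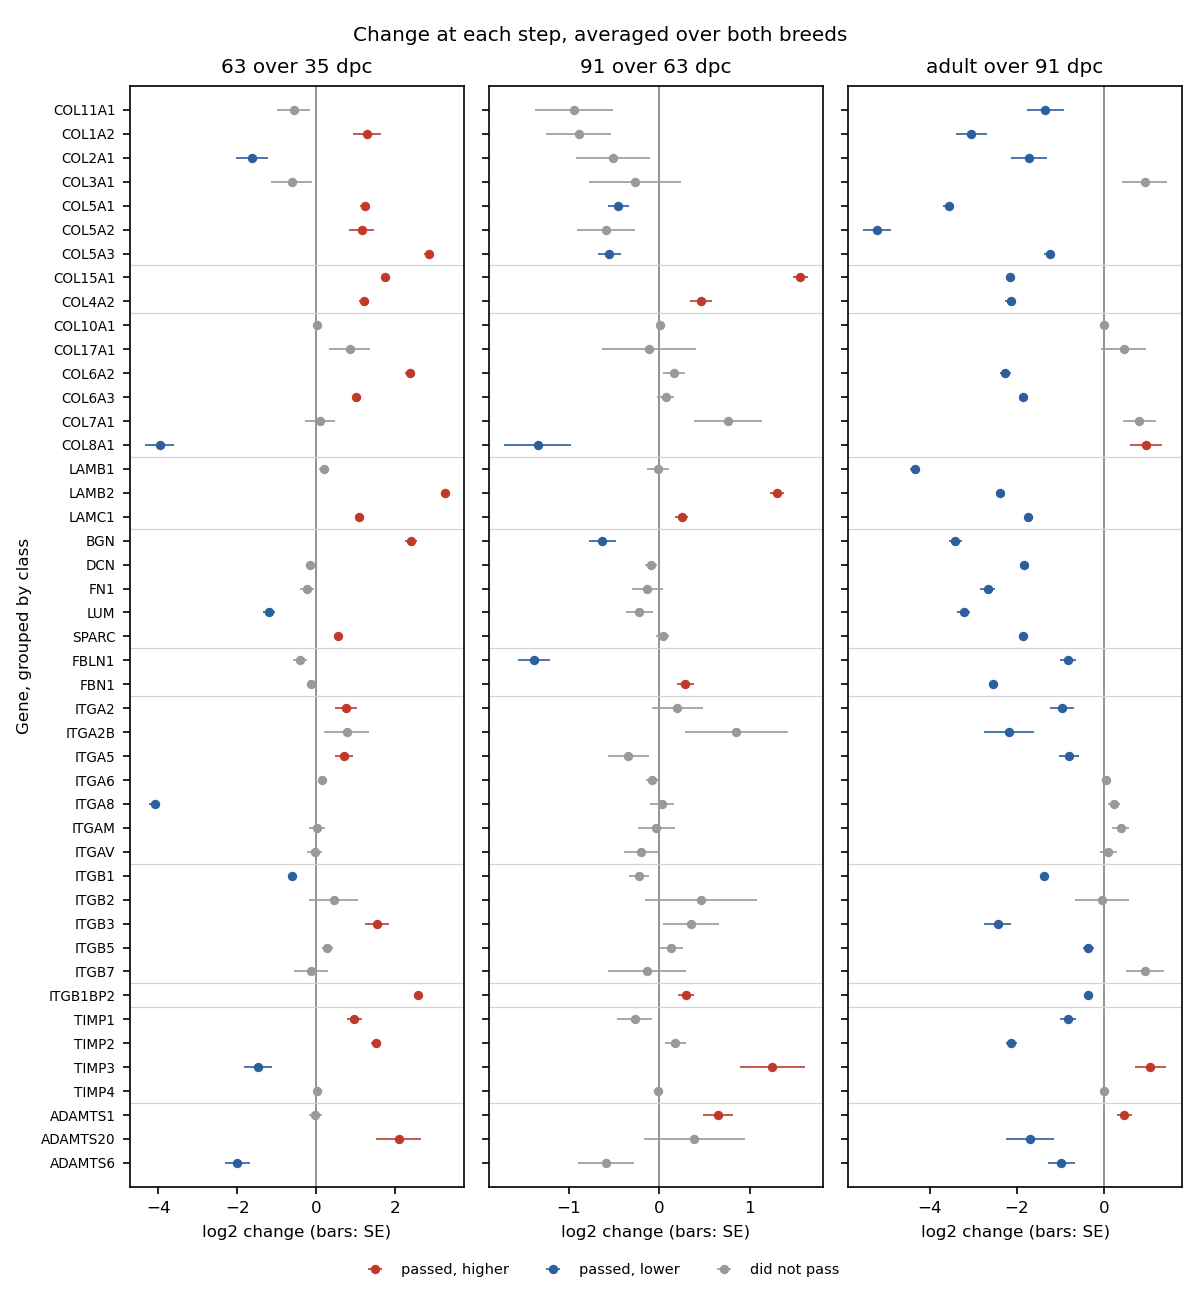
Fitted log2 change of each member in the 3 stage steps (1 panel each, horizontal axes of different lengths, bars for the standard error), with genes grouped by class down the page and colour for calls at adjusted p under 0.05. Rises outnumber falls in the first step, 19 to 7, and falls outnumber rises in the adult step, 31 to 3.

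Genes that make, anchor or cut the matrix were counted from lists written for this purpose. Beside these counts, 22.3% of all probe sets rose and 22% fell in the first step. In the second step 8.88% rose and 9.4% fell, and in adults 30.8% rose and 26.6% fell. Of 11 measured genes for collagen synthesis and cross-linking, 7 rose and none fell from 35 to 63 dpc, and 10 fell and 1 rose in adults. The largest changes in the first step were those of LOXL4, a lysyl oxidase relative (2.07 ± 0.32), P4HA2, a prolyl hydroxylase chain (1.99 ± 0.08), and BMP1, the procollagen C-proteinase (1.40 ± 0.13). In adults they were those of the collagen chaperone FKBP10 (-4.74 ± 0.59), of CRTAP, a part of the prolyl 3-hydroxylase complex (-3.37 ± 0.15), and of the cross-linking enzyme LOX (-2.68 ± 0.27). PCOLCE2, which enhances procollagen processing, rose by 1.80 ± 0.30 to 91 dpc and by 1.22 ± 0.30 in adults, while CRTAP fell by 0.53 ± 0.15 to 91 dpc.

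Of 19 other matrix proteins, 10 rose and 2 fell in the first step, 4 rose and 2 fell in the second, and 1 rose and 16 fell in adults. COMP (4.74 ± 0.68), PRELP (3.68 ± 0.24) and TNXB (2.93 ± 0.15) rose most in the first step. TNC, tenascin C, fell by 3.0 ± 0.35 and ACAN, aggrecan, by 1.53 ± 0.39 from 63 to 91 dpc, while MGP, matrix Gla protein, rose by 1.06 ± 0.15. In adults POSTN, periostin, averaged 3.73 against 13.53 at 91 dpc, ASPN, asporin, 5.66 against 12.76, and VCAN, versican, 4.02 against 10.52, with fitted changes of -9.80 ± 0.33, -7.11 ± 0.45 and -6.50 ± 0.48 that are not exact, since 2, 1 and 2 of the adult pools lay at background. Fibroblast markers fell in the same step, 8 of 11 of them, and 1 rose; their part in the adult changes of the matrix genes was not tested.

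Proteases and links to the cell were mixed. Of 13 metalloproteinases and relatives, 5 rose and 2 fell in the first step, limma called 0 in the second (1 at an unadjusted p under 0.05, MMP2 at -0.27), and 3 rose and 2 fell in adults. PLAT, tissue plasminogen activator, fell by 4.26 ± 0.46 in the first step and rose by 2.35 ± 0.46 in adults, ADAM15 rose by 2.85 ± 0.34 and ADAM10 fell by 2.29 ± 0.62 in the first, and the collagenase activator MMP14 and the gelatinase MMP2 fell in adults by 4.0 ± 0.36, with 5 of 6 adult pools at background, and 2.85 ± 0.10. Of 5 genes linking basement membrane and dystrophin, 4 rose in the first step, and in adults 2 rose and 2 fell. DMD, dystrophin, rose by 1.32 ± 0.24 and then by 0.75 ± 0.24, SNTB1, a syntrophin, by 0.83 ± 0.12 in the first step and 1.37 ± 0.12 in adults, and SGCD, delta-sarcoglycan, by 0.63 ± 0.13 and 2.18 ± 0.13 in the fetal steps. NID2, a laminin-binding nidogen, fell by 3.62 ± 0.13 in adults and POMT1, an enzyme that glycosylates dystroglycan, by 2.08 ± 0.60.

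Of 12 focal adhesion genes, ITGB1BP2 included, 7 rose and 1 fell in the first step, 2 rose and 1 fell in the second, and 3 rose and 6 fell in adults. LIMS2, a partner of integrin-linked kinase, rose by 5.96 ± 0.16 and TLN1, talin, by 1.94 ± 0.10 in the first step, and TLN1 by 0.34 ± 0.10 in the second, where RSU1 fell by 0.59 ± 0.12. PARVA, parvin, and FLNA, filamin, fell by 1.96 ± 0.18 and 1.41 ± 0.12 in adults. Of 13 genes of transforming growth factor beta signalling, 3 rose and 4 fell in the first step, 1 rose and 3 fell in the second, and 4 rose and 4 fell in adults. In the first and adult steps these counts lie near the shares of all probe sets. TGFB1 rose by 2.19 ± 0.33 and 1.54 ± 0.33 in the fetal steps, BMP4 fell by 2.19 ± 0.49 in the first, and ACVR2B was at least 2.908-fold higher at 63 than at 35 dpc. In adults the antagonist FST fell by 3.67 ± 0.45, TGFB3 fell by 3.15 ± 0.21 and SMAD3 rose by 3.62 ± 0.40.

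Across the 8 group means, which share their breeds and stages, some members followed each other closely, given here as a description. Pearson's r was 0.996 for DCN and FN1, 0.991 for COL5A1 and SPARC, 0.990 for LAMC1 and TIMP2, 0.989 for LAMB1 and FBN1, 0.986 for COL1A2 and COL5A2, 0.970 for COL15A1 and LAMB2 and 0.957 for ITGA8 and COL8A1. DCN and LUM are next to each other in the order of genes of Sscrofa11.1 and had r = 0.971, while the neighbours COL3A1 and COL5A2 had r = -0.379.

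Pi and DL pools were compared at each stage. At 35 dpc, 4 of the 45 members passed between Pi and DL, beside 4.03% of all probe sets, and 19 had pools that did not overlap, beside 30.1%. COL4A2 had 11.22, 11.40 and 11.10 in the Pi pools a, b and c, against 11.88, 11.85 and 12.20 in the DL pools, and was 0.74 ± 0.17 lower in Pi (adjusted p = 0.0175). COL5A3 had 6.92, 7.53 and 7.27 in Pi against 7.93, 8.16 and 8.03 in DL, and was 0.80 ± 0.18 lower (adjusted p = 0.0188). Both were lower in each Pi pool than in any DL pool.

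COL6A2 and ITGA8 went the other way. COL6A2 had 8.90, 9.0 and 8.89 in Pi against 8.27, 8.41 and 8.09 in DL, a difference of 0.68 ± 0.17 (adjusted p = 0.0289). ITGA8, with the pool values given above, was 0.73 ± 0.18 higher in Pi (adjusted p = 0.0287), and a second ITGA8 probe set was 1.29 ± 0.28 higher (adjusted p = 0.0115). GAPDH 3' minus 5' was also higher in Pi at this stage, 1.16 ± 0.07 against 0.64 ± 0.14 in DL (SD, n = 3 each), and with it as a covariate COL5A3, COL6A2 and ITGA8 no longer passed (adjusted p = 0.0856, 0.192 and 0.138). Under the hybridisation control scaling, the median of all probe sets moved by 0.51, COL4A2 and COL5A3 differed by -0.23 and -0.29 and did not pass, and 15 members were called. With only the arrays of both 35 dpc groups, 4 members passed again, but COL4A2, COL5A3 and ITGA8 did not (adjusted p = 0.0549, 0.0736 and 0.0975) and COL5A2 (0.91), ITGA5 (-0.67) and ITGB5 (-0.56) did. Without Pi pool c or without DL pool c no member passed, without Pi pool a 1 did and without DL pool b 2 did. The 13 skeletal muscle markers summed to 67900 to 71100 in Pi against 75400 to 81300 in DL at this stage, with 5 called lower in Pi, and the 6 bone markers to 10300 to 12500 in Pi against 6920 to 8820 in DL, with 0 called. Their part in these differences was not tested.

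At 63 dpc limma called 0 members between the breeds (5 at an unadjusted p under 0.05; 1.37% of all probe sets were called), and at 91 dpc also 0 (3 unadjusted; 2.72% of all probe sets). The call counts differ between stages, but only 2 members passed in the test of the breed difference in a step, given below. In adults 2 members passed, beside 6.33% of all probe sets. COL15A1 had 11.28, 11.77 and 11.44 in the Pi pools, against 11.06, 11.04 and 11.20 in the DL pools, and was 0.40 ± 0.11 higher in Pi (adjusted p = 0.0395). ITGA8 had 3.21, 2.52 and 3.5 in Pi, while all 3 DL pools, at 2.33, 2.47 and 2.39, were at background, which makes it at least 1.374-fold higher in Pi (adjusted p = 0.032). Pi pools were above all DL pools for both. A second ITGA8 probe set was 0.89 ± 0.28 higher in Pi (adjusted p = 0.0651), while the remaining one differed by -0.96 ± 0.65 (adjusted p = 0.441), with 5.51 in DL pool a, and the mean of the probe sets differed by 0.20 (adjusted p = 0.751). With only the adult arrays neither gene passed (adjusted p = 0.463 for COL15A1 and 0.491 for ITGA8). In the same pools the 12 endothelial markers summed to 3630 to 3830 in Pi against 2960 to 3270 in DL, with 1 called higher, and the 6 adipocyte markers to 4400 to 5460 against 2400 to 3650, with 2 called higher, and their part was not tested.

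Adult Pi pool b, with the high liver markers, weighed on this comparison, and the part of those markers was not tested. Without that pool 6 members passed: ITGA8 (0.96), ADAMTS1 (0.94) and TIMP1 (1.0) were higher in Pi, and FN1 (-0.72), LUM (-0.96) and ITGB5 (-0.71) lower. COL15A1 was then 0.26 higher and did not pass (adjusted p = 0.13). FN1 had 10.70, 11.89 and 10.48 in the Pi pools a, b and c, against 11.10, 11.60 and 11.21 in the DL pools, so that pool b alone was above the DL pools. LUM had 8.36, 9.45 and 8.61 in Pi, against 9.08, 9.79 and 9.45 in DL. Without adult Pi pool c only BGN (0.87) passed and without adult DL pool b only ITGA5 (1.16), while without adult DL pool a ADAMTS6 (-1.76) and LUM (-0.81) passed, so that neither COL15A1 nor ITGA8 did in any of these 3 cases. Without adult DL pool c only COL15A1 passed, and without the Pi 35 dpc pool c only ITGA8.

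Averaged over the 4 stages, 2 members passed, beside 6.29% of all probe sets, and both were higher in Pi: ITGA8 by 0.40 ± 0.09 (adjusted p = 0.0136) and COL6A2 by 0.31 ± 0.08 (adjusted p = 0.0356). The difference of ITGA8 was 0.09 ± 0.18 at 63 dpc and 0.11 ± 0.18 at 91 dpc, where it was near background and did not pass.

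The change between stages was tested for a breed difference as well. From 35 to 63 dpc 1 member passed, beside 3.3% of all probe sets. COL4A2 rose by 1.68 ± 0.17 in Pi and by 0.77 ± 0.17 in DL, a difference of 0.91 ± 0.24 (adjusted p = 0.0425). At 63 dpc it had 12.89, 12.88 and 12.99 in Pi and 12.71, 12.64 and 12.87 in DL. The Pi pools, lower at 35 dpc, were then slightly above the DL pools, a difference that was not called. The call was lost when any of 15 of the 24 pools was left out (adjusted p of 0.0505 to 0.11). The difference was 0.28 (adjusted p = 0.417) under the hybridisation control scaling. From 63 to 91 dpc limma called 0 (2 unadjusted; 0.0917% of all probe sets).

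In the adult step 1 member passed, beside 2.66% of all probe sets. ADAMTS1 rose by 1.19 ± 0.24 in Pi (adjusted p = 0.000491), with 9.86, 9.16 and 9.83 in adult pools against 8.41, 8.85 and 7.99 at 91 dpc. In DL it changed by -0.26 ± 0.24 (adjusted p = 0.418), with 8.72, 9.13 and 8.85 in adults against 8.62, 9.28 and 9.58 at 91 dpc. The difference was 1.46 ± 0.34 (adjusted p = 0.0315), and all Pi pools were higher in adults, whereas the DL pools overlapped. A second ADAMTS1 probe set had 8.47, 7.94 and 7.63 in adult Pi pools against 8.26, 7.89 and 7.84 at 91 dpc. Over both breeds it fell by 0.41 ± 0.16 (adjusted p = 0.0342), and its breed difference of 0.86 ± 0.32 did not pass (adjusted p = 0.177). With only the arrays of the groups compared, ADAMTS1 did not pass (adjusted p = 0.236) and COL8A1 did (1.57). Without Pi adult pool b, 5 members passed, with ITGA8 (0.86) and ADAMTS1 (1.68) changing more toward higher levels in Pi and FN1 (-0.75), LUM (-1.37) and ITGB5 (-0.83) toward lower.

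**Figure D4:**
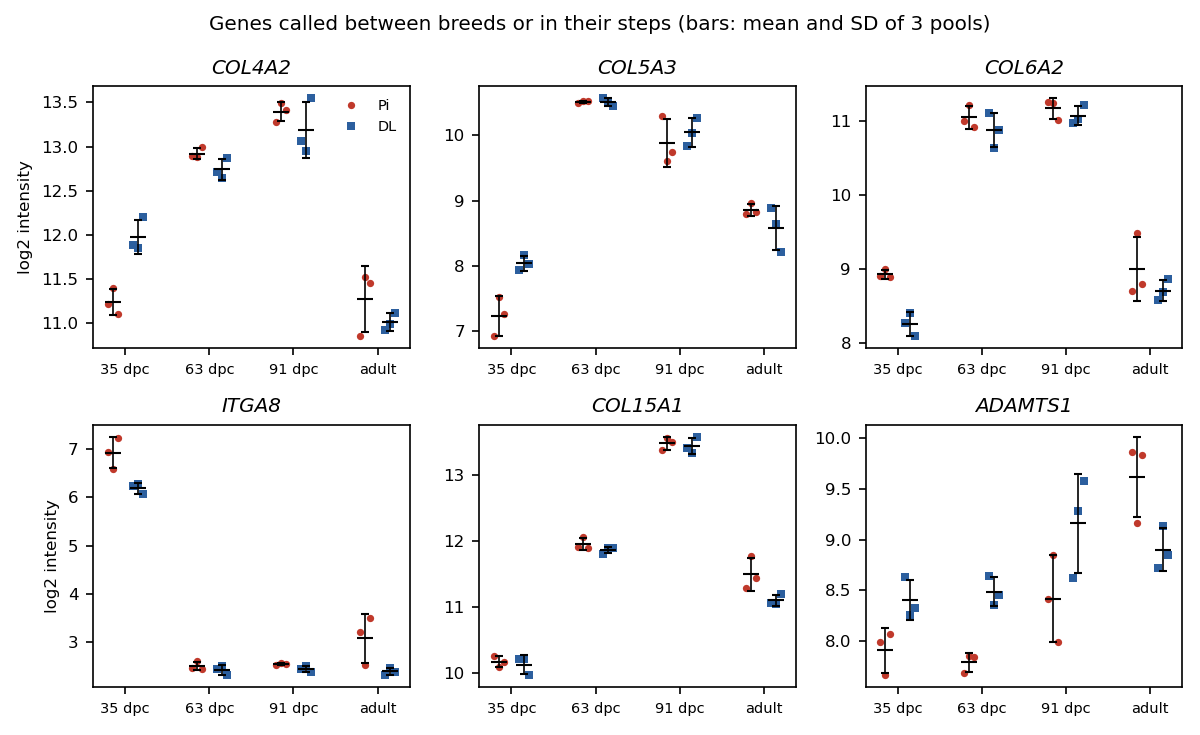
Log2 intensity (vertical axes, 1 panel per gene) in each pool of the 6 members called between the breeds or in their stage steps, by stage (horizontal axes), with Pi circles left of DL squares and black bars for the mean and SD of 3 pools. COL4A2 and COL5A3 are lower and COL6A2 and ITGA8 higher in Pi at 35 dpc. The adult Pi pools of ADAMTS1, at 9.16 to 9.86, are above the adult DL pools, at 8.72 to 9.13. That adult difference was not called, and on a second ADAMTS1 probe set, not plotted, the adult pools of the breeds overlap.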

How the data were processed

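The deposited table holds 1 log2 intensity per probe set and array. Per the submitters' processing notes, GCOS 1.1.1 was used; the summarisation and background correction were not found in the labels or headers. Per the labels' protocols, cRNA was made from 500 ng of total RNA. No source names the log base; values of 1.60 to 16.10 led to base 2. All 24 sorted columns are identical (largest difference 0), so the authors had quantile-normalised the log2 values before deposit, and a change in total mRNA cannot be seen.

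Of 24123 probe sets, 124 controls were left out. The annotation gave 1 symbol for 10069 of the 23999 tested, several for 198 and none for 13732. limma 3.58.1 in R 4.3.3 fitted 8 group means to 24 arrays (16 residual and 1.31 prior degrees of freedom); tests were two-sided. The 11 comparisons were 3 stage steps averaged over breeds, Pi over DL at each of 4 stages and averaged over them, and 3 interactions. The model assumes 1 spread for all groups, but residual SDs per array were 0.235 to 0.309 at 35 dpc and 0.528 to 0.696 in adults. Where every array of a side was at background, the fold was computed against the background ceiling and is a lower bound. Between 21.3% and 32.2% of probe sets per array were at background, and the number of arrays limits the precision.

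Simulated data held 200 changed probe sets among 23999. For 63 over 35 dpc, 56% of the 2-fold and 90% of the 4-fold changes were recovered. For adult over 91 dpc these were 55% and 90.5%. For Pi over DL they were 44.5% and 76% at 35 dpc, and 41.5% and 76% in adults. Each simulated probe set had the same spread in all groups, whereas in the data adult arrays spread more than those at 35 dpc. The simulation therefore cannot show how recovery differs between these stages. In the data, 10611 and 13772 probe sets were called in these stage steps, and 966 and 1519 in these breed comparisons. The Benjamini-Hochberg cut-off depends on how many probe sets change, so these rates do not give the power of the comparisons. The pool letters are not known to pair samples across groups. Deviations of same-letter pools from their group means correlated at -0.08 to 0.09 over 84 pairs, which cannot show whether the letters share an origin. The labels name no batch, and 0 array pairs were identical.

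The members and gene lists were chosen with earlier results of these data known. Full pool values were given for the 3 members per class (2 in classes of under 6) with the largest change past the threshold in a stage step, for members called between breeds, and for the 3 genes per list and step with the largest change. Values of other members (COL1A2, COL2A1, ITGB2 and ITGB7 among them) were chosen for printing after they were seen. Plots used matplotlib 3.10.9 (Python 3.11.15).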

Additional observations from a re-analysis of the deposited data

Results flagged for a closer look

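The difference between the breeds in a stage step passed its own test for 2 members. COL4A2 rose more in Pi than in DL from 35 to 63 dpc, by 0.91 on the log2 scale (limma, adjusted p = 0.0425), and its level differed at 35 dpc. That call held in 16 of 33 alternatives, with adjusted p of 0.00239 to 0.417. ADAMTS1 rose in Pi adults relative to 91 dpc and did not pass in DL, and the steps differed by 1.46 (adjusted p = 0.0315). It held in 24 of 33 alternatives, with adjusted p of 0.00816 to 0.236, and on a second probe set the difference of 0.86 did not pass (adjusted p = 0.177).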

How the results depend on the processing

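Counts of members called in the 63 over 35 dpc step and of members lower in adults stayed within 1.5 times under each alternative run, except the first under hybridisation control scaling (the adult falls numbered 21 with the GAPDH covariate); calls between breeds depended on settings and on single pools. The cause was not tested. The scaling gave 12 higher and 23 lower from 35 to 63 dpc, 4 higher from 63 to 91 dpc, 1 higher in adults, 15 between breeds at 35 dpc, 4 at 91 dpc, 1 in adults and 1 over all stages, and 13 for the breed difference in the first step. It turned ITGA2 (-0.04), ITGA5 (-0.10) and SPARC (-0.26) in the first step. Fitting only the arrays of the groups compared gave 0 between adult breeds and 6 for the breed difference in the first step, beside 21 and 1395 of all probe sets. It replaced 3 of the 4 genes called at 35 dpc and the 1 called for the breed difference in the adult step. Array weights gave 1 higher in adults, 12 between breeds at 35 dpc, 1 at 63 dpc, 1 at 91 dpc and 0 in adults, and 8 and 0 for the breed difference in the first and adult steps. Of all probe sets, these weights called 3156, 1000, 1285 and 242 between breeds at the same stages. For the breed difference in those steps they called 2329 and 174. The filter on dim probe sets gave 0 for the breed difference in the first step. The mean of a gene's probe sets gave 1 between breeds at 91 dpc, 1 over all stages and 2 for the first-step breed difference, and turned COL2A1 (0.05) and ITGA5 (0.78) in adults. The most variable probe set gave 5 higher from 63 to 91 dpc and turned ITGA5 (2.36) and LAMC1 (0.55) in adults. A variance trend with a robust prior gave 1 between breeds over all stages. GAPDH 3' minus 5' as a covariate gave 1 higher in adults, 1 between breeds at 91 dpc, 1 over all stages and 3 for the first-step breed difference, and turned ITGA2 (0.79) and TIMP3 (-0.88) in adults. Of all probe sets it called 280 between breeds at 91 dpc, 621 over all stages and 807 for that breed difference. The steps within a breed, chosen after seeing the data, gave 3 higher and 2 lower from 63 to 91 dpc in Pi, and 2 higher and 3 lower in DL, with 0 higher in DL adults, where ADAMTS1 was -0.26.

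Leaving out 1 pool at a time gave 18 to 20 higher and 7 to 8 lower from 35 to 63 dpc, 5 to 8 higher (5 without Pi 63 dpc pool a) and 5 to 6 lower from 63 to 91 dpc, and 0 to 5 higher and 30 to 31 lower in adults. The adult rises numbered 0 without adult Pi pool c, and 5 without adult Pi pool b or adult DL pool c. Between breeds the counts were 0 to 5 at 35 dpc, 0 to 1 at 63 dpc (1 without DL 91 dpc pool c), 0 to 2 at 91 dpc (2 without DL 91 dpc pool c, 1 without DL 91 dpc pool a), 1 to 6 in adults and 1 to 5 over all stages. Over all stages the count was 5 without DL 91 dpc pool c, and 1 without any of 11 pools: DL 35 dpc a and c, DL 63 dpc b and c, DL 91 dpc a and b, Pi 35 dpc b and c, Pi 63 dpc b, and Pi 91 dpc a and b. COL6A2 was the call lost in each of these 11 cases. The breed difference was called for 0 to 2 members in the first step (0 without any of 13 pools, 2 without adult Pi pool b), 0 in the second and 0 to 5 in the adult step (5 without adult Pi pool b, 0 without DL 91 dpc pool b or c, Pi 91 dpc pool a or c, or adult Pi pool c). With the pool letter as a replicate block, 5 members passed between breeds at 35 dpc in place of 4, ITGB1BP2 being added, and no call was lost. The letters are not known to pair the samples. Members at background, COL10A1 and TIMP4 on all arrays, give no level.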
